A study of Homo sapiens with 6 samples.

Results

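The cytosolic ribosomal protein genes encode the proteins that, with ribosomal RNA, build the small and the large subunit of the ribosome in the cytoplasm. They were chosen by symbol, as RPL or RPS followed by a number with an optional A or X, or RPLP0, RPLP1 or RPLP2. RPS6K kinases, pseudogenes and paralogs ending in L were left out, and so were genes whose symbols the rule does not match, such as RPSA and FAU. The rule found 76 of the 18562 genes with a RefSeq NM transcript in the deposited table, 46 of the large subunit and 30 of the small subunit. For its structure in hg19 each gene is described by 1 transcript, the one with the largest exonic length.

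The table comes from RNA sequencing of U2OS cells, an osteosarcoma line of human origin, which were harvested 48 h after an shRNA plasmid was transfected. The design has 3 groups of 2 samples each: shCac_C and shCac_D, a pair of shRNAs against human Cactin, and shCtrl, a control shRNA. Cactin is studied there for its part in pre-mRNA splicing. The 6 columns of values in the table carry no names and were not matched to samples, so no level, no intron to exon ratio, no CACTIN knockdown and no difference between shCac_C, shCac_D and shCtrl is given here, and the depth of the samples is unknown. What follows are the structures of the genes in hg19, as the table lists them, and their sequences in reference annotation. These are properties of the annotation, with no replicates and no test, and they say nothing of how the genes responded in U2OS cells.

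Ribosomal protein messenger RNAs are among the most abundant in growing cells, and their translation is controlled together. In vertebrates most of them begin with a 5′ terminal oligopyrimidine element, abbreviated TOP, a C at the cap followed by a run of pyrimidines, through which mTOR signalling and the protein LARP1 act. Many of their introns also carry small nucleolar RNAs (snoRNAs), which are released from the spliced intron and guide the chemical modification of ribosomal RNA, 2′-O-methylation by the box C/D kind and pseudouridylation by the box H/ACA kind.

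The sequences around the transcript start show the TOP element directly. RefSeq promoter windows in GRCh38.p14 were matched by symbol for 61 of the 76 genes. They were not tied to the transcript chosen for the structure, so the annotated start can be that of another transcript of the gene. Each line below gives 50 bases on the RNA strand in lower case, 25 before the annotated start and 25 from it. Capitals mark the C-led pyrimidine run counted from the start. RPS6 is the S6 kinase substrate of the small subunit. RPS19, RPS24, RPS10 and RPL35A are mutated in Diamond-Blackfan anaemia. RPLP0, RPLP1 and RPLP2 form the stalk that recruits translation factors. RPL13A, RPL7A and RPL39 belong to the large subunit, and each carries snoRNAs in its introns.
RPS6, chr9:19380212-19380261, minus strand: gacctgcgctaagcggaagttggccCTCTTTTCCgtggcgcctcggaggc
RPS19, chr19:41860230-41860279, plus strand: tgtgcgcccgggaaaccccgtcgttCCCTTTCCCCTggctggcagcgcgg
RPS24, chr10:78033838-78033887, plus strand: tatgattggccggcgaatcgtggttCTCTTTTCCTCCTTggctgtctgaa
RPS10, chr6:34426045-34426094, minus strand: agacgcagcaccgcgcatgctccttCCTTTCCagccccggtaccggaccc
RPLP0, chr12:120201087-120201136, minus strand: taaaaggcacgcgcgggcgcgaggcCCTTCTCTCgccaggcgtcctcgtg
RPLP1, chr15:69452793-69452842, plus strand: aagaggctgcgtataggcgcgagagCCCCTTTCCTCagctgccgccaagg
RPLP2, chr11:809942-809991, plus strand: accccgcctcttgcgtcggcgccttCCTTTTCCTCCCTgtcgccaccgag
RPL13A, chr19:49487583-49487632, plus strand: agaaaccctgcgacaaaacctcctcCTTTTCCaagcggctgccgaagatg
RPL35A, chr3:197950165-197950214, plus strand: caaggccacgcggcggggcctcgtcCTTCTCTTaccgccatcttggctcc
RPL7A, chr9:133348193-133348242, plus strand: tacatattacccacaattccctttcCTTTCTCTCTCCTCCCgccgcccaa
RPL39, chrX:119791606-119791655, minus strand: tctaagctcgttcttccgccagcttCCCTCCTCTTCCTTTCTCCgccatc

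Counted from the annotated start, the run covered 19 bases in RPL39, 16 in RPL7A, 14 in RPS24, 13 in RPLP2, and 11 in both RPLP1 and RPS19. RPLP0 and RPS6 had 9 bases each, RPL35A had 8, and RPL13A and RPS10 had 7 each. These lengths depend on where the start was annotated, since pyrimidines can also lie just before it. The longest C-led run beginning within 5 bases of the start was 22 bases in RPL39, 21 in RPL7A and 17 in RPLP2. It was also longer than the run from the start in RPL13A, RPS10, RPS6, RPLP0 and RPL35A. In RPS24, RPLP1 and RPS19 it was no longer.

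Other members had no such run at the annotated start. They are shown for contrast, with capitals again marking a C-led run from the start. RPS4X and RPL10 are X-linked, and RPS27A encodes a fusion of ubiquitin to a small subunit protein. The other X-linked members, RPL39 and RPL36A, did have runs at the start, of 19 and 10 bases. RPS26, RPL11 and RPS7 are further Diamond-Blackfan anaemia genes, and RPL4 is a large subunit protein.
RPS4X, chrX:72277224-72277273, minus strand: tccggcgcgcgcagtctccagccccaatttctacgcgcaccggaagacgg
RPL10, chrX:154398040-154398089, plus strand: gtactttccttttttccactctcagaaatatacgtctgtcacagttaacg
RPS26, chr12:56041893-56041942, plus strand: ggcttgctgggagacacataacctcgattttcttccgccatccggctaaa
RPS27A, chr2:55231878-55231927, plus strand: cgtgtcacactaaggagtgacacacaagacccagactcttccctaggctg
RPL11, chr1:23691754-23691803, plus strand: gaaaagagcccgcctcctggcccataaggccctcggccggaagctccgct
RPL4, chr15:66504831-66504880, minus strand: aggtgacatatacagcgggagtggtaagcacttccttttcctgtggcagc
RPS7, chr2:3575235-3575284, plus strand: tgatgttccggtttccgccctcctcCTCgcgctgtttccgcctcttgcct

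RPS4X, RPL10, RPS27A, RPL11 and RPL4 were annotated to start at A, and RPS26 at G. RPS7 started at C but its run from there ended after 3 bases. The longest C-led run beginning within 5 bases of the annotated start had 12 pyrimidines in RPL4, 7 in RPS7 and 5 in RPL11. For these genes a shift of the annotated start by a few bases decides whether the element is counted. The longest such run had 4 bases in RPS4X and RPS26 and 3 in RPL10 and RPS27A.

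A C at the start followed by at least 4 pyrimidines was present in 41 of the 61 ribosomal protein genes, 67.2%, against 700 of 14869 genes with an NM transcript and a promoter window, 4.71%. The share was 16 of 23 in small subunit genes and 25 of 38 in large subunit genes. Among the 29 proteasome subunit genes with a window 0 had it, and among 31 nuclear subunit genes of mitochondrial complex I there was 1. The start base alone was C in 45 of the 61 ribosomal protein genes, 73.8%, and in 11.2% of all genes. Among the 41 genes with the element the median run, counted from the annotated start, was 8 bases. The letters TATAA lay between 40 and 20 bases before the start, on the RNA strand, in 6 of 61 ribosomal protein genes, 9.84%, and in 5.62% of all genes. CCGGAAG is the core of an ETS family site. It occurred on either strand of the 300-base window in 21 of 61, 34.4%, and in 14.6% of all windows. Proteasome genes had the same share, 10 of 29, 34.5%, and complex I genes had 5 of 31, 16.1%. GGGCGG, an Sp1-type site, occurred on either strand in 33 of 61, 54.1%, and in 59.8% of all windows. These are matches of letters, not shown to be bound. AAGATGG, part of a YY1 site, was found on either strand in 8 of 61, 13.1%, and in 6.50% of all windows. The share was higher in proteasome genes, 7 of 29, 24.1%, and in complex I genes, 7 of 31, 22.6%.

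**Figure D1:**
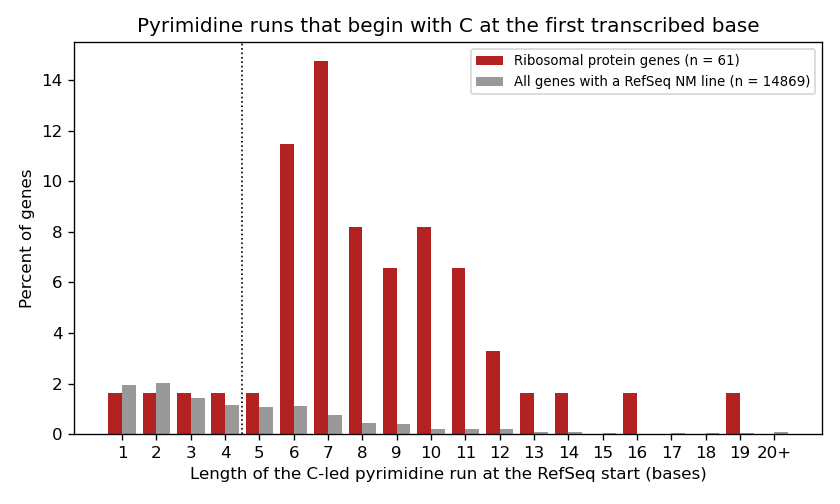
Percent of genes (vertical axis) by the length in bases of the pyrimidine run that begins with C at the RefSeq start (horizontal axis), for 61 ribosomal protein genes (red) and 14869 genes with an NM transcript (grey). Genes that do not start with C are not drawn, and bars right of the dotted line have a C followed by 4 or more pyrimidines, 67.2% of ribosomal protein genes and 4.71% of all genes.

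The ribosomal protein genes were compact. The median exonic length was 720.5 bases, against 2655 bases over all 18562 genes, 1533 bases over 34 proteasome subunit genes and 795 bases over 36 complex I genes. Exonic length lay below 1000 bases in 57 of 76 ribosomal protein genes, 75%, and in 10.3% of all genes. The share was 63.9% in complex I genes and 20.6% in proteasome genes. The median gene span was 4437.5 bases against 22636.5 bases, and the median summed intron length 3284 bases against 19589.5 bases. Complex I genes, with exons about as short, had a median summed intron length of 10071 bases.

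The shortest exonic lengths belonged to RPS27 with 351 bases, RPS28 with 382 and RPL38 with 392. RPS28, a small subunit protein gene on chromosome 19 from 8386384 to 8387280, also had the smallest span, 897 bases with 3 introns that sum to 515 bases. The largest exonic lengths were 4879 bases in RPL27A, 4401 in RPL28 and 3314 in RPS23. The last exon of RPL28 measured 4154 bases in NM_001136134, the transcript used, and 3841 bases in NM_000991, against 530, 471 and 435 bases in the other 3 of its 5 NM transcripts. The largest summed intron lengths were 20239 bases in RPS24, 16336 in RPL31 and 12515 in RPL22.

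RPS24 had a pair of annotated 3′ ends. It spans chromosome 10 from 79793518 to 79816571 on the plus strand in its longest transcript, NM_001142285, with a last intron of 17226 bases and a last exon of 2283 bases. The other 5 of its 6 NM transcripts end at 79800473 with a last exon of 101 bases, and 4 of these hold very short exons, the shortest being 18 bases in NM_001142284, 21 in NM_001142283, 22 in NM_033022 and 25 in NM_001142282. RPL17 had 8 NM transcripts and RPL28 had 5, while 52 of the 76 genes had a single transcript line.

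**Figure D2:**
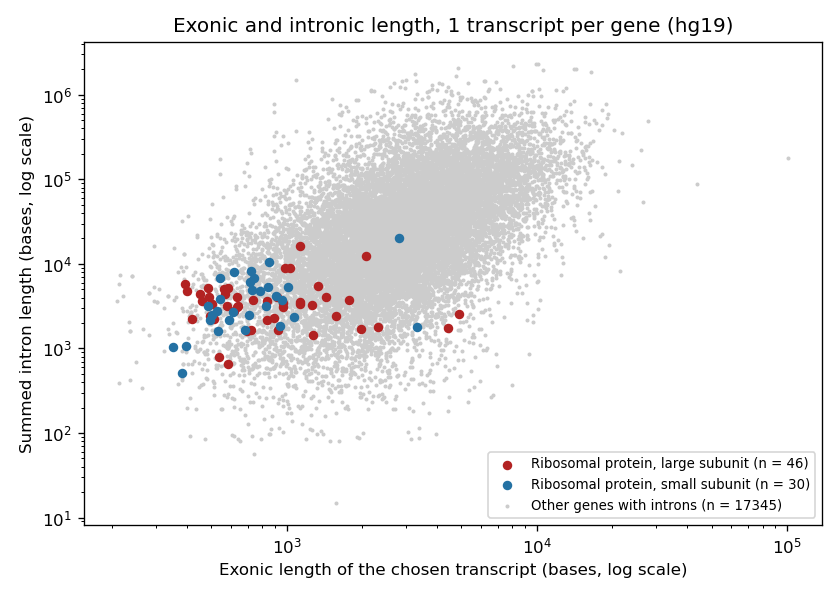
Summed intron length (vertical axis, bases, log scale) against exonic length (horizontal axis, bases, log scale) for 1 transcript per gene in hg19. The 46 large subunit genes (red) and 30 small subunit genes (blue) lie toward the short end of both axes among other genes with introns (grey), with median exonic length 720.5 bases against 2655 bases over all genes.

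Every one of the 76 genes had introns, from 2 in RPL32, RPL36, RPL39, RPL41 and RPS29 to 9 in RPL3 and RPL4. The median number was 4, against 7 over all genes, 3 over complex I genes and 8.5 over proteasome genes. The median intron measured 484.5 bases over 344 introns, against 1560 bases over 177332 introns of all genes and 1846 bases over 162 introns of complex I genes. The order of the introns differed as well. The intron nearest the start was the longest in 11 of the 76 genes, 14.5%, whereas it was the longest in 40.1% of all genes with at least 2 introns. In proteasome genes the share was also below that of all genes, 8 of 34, 23.5%. In complex I genes it was 18 of 35, 51.4%. The median length of the intron nearest the start was 471.5 bases in ribosomal protein genes, close to the 490.5 bases of their later introns. Over all genes these medians were 3518 and 1464 bases. Among small subunit genes the intron nearest the start was the longest in 1 of 30, and among large subunit genes in 10 of 46.

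The exon nearest the start was short, with a median of 81 bases against 232 bases over all genes. It measured 20 bases in RPS2, a protein of the small subunit, 26 in RPL15 and 33 in RPL7A. In GENCODE release 29, 73 of the 76 genes could be matched by accession, to transcripts that can differ from those described above. Their exon nearest the start had a median of 111 bases. RPL37A, for instance, had 3647 exonic bases there against 418 in the hg19 transcript used. The start codon lay in the exon nearest the start, with at most 10 coding bases before the splice site, in 26 of these 73 genes. That is 35.6%, against 2.50% of 17481 genes. In 18 of these 26 the exon held exactly 3 coding bases, the start codon alone, among them RPL3, RPL4, RPL5, RPL7A, RPS4X and RPS24. The coding region, stop codon included, had a median of 471 bases against 1281 bases, and ran from 78 bases in RPL41 to 1284 bases. Complex I genes were close, with a median of 492 bases, and proteasome genes had 1014 bases. The 3′ UTR had a median of 80 bases against 793 bases, with 135 bases in complex I genes and 347.5 bases in proteasome genes.

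Small nucleolar RNAs lay inside the introns of 25 of the 76 ribosomal protein genes, 32.9%, against 130 of all 18562 genes, 0.700%, and 0 of the 34 proteasome and 36 complex I genes. Of the 192 snoRNAs listed inside an intron of a chosen transcript, 51 were in ribosomal protein genes, 26.6%. The table lists 392 snoRNA loci, and those outside the introns of these coding transcripts are not in this share. Large subunit genes hosted 37 snoRNAs in 18 of 46 genes, and small subunit genes hosted 14 in 7 of 30. Each of the 51 lay in an intron of its own, and so did each of the 141 others. Some genes of the table overlap, so 4 of the 141 lay in introns of a pair of genes, and SNORD58A and SNORD58C of RPL17 also lay in introns of the readthrough gene RPL17-C18orf32. Counts for other genes below are therefore of 147 placements, a placement being a snoRNA in 1 host gene. Values with each snoRNA counted once stand beside them. The other genes include RPSA, which hosts SNORA6 and SNORA62. Entries named SCARNA are among the 147 but were counted in neither the box C/D nor the box H/ACA kind. Strand is not given for these single-exon entries, so placement rests on position alone. The Diamond-Blackfan anaemia genes chosen here included 1 host among 9, RPL5, with SNORD21 in intron 5 and SNORA66 in intron 7.

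Among the large subunit genes, 5 hosted 4 snoRNAs each. RPL13A, a large subunit protein, held SNORD32A, SNORD33, SNORD34 and SNORD35A in introns 2, 4, 5 and 6. RPL7A held SNORD24, SNORD36B, SNORD36A and SNORD36C in introns 2, 4, 5 and 6. RPL4 held SNORD18A, SNORD16, SNORD18B and SNORD18C in introns 2, 3, 4 and 6. RPL23A held a snoRNA in each of its 4 introns, SNORD42B, SNORD4A, SNORD42A and SNORD4B from the 5′ end. RPL3 held SNORD43, SNORD139, SNORD83A and SNORD83B in introns 1, 3, 5 and 7. RPS12, of the small subunit, held 3, with SNORD101, SNORD100 and SNORA33 in introns 3, 4 and 5.

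**Figure D3:**
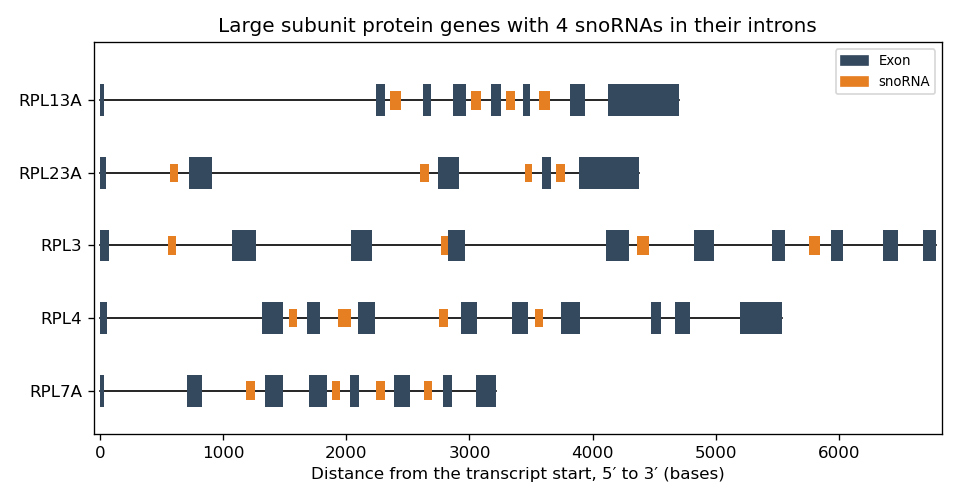
Exons (dark) and snoRNAs (orange) of the 5 large subunit genes that host 4 snoRNAs, drawn 5′ to 3′ to scale by distance in bases from the transcript start (horizontal axis). Each snoRNA sits in a different intron of its gene, and RPL23A has one in each of its 4 introns.

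Several hosts carried related copies. Of the 13 ribosomal protein genes with at least 2 snoRNAs, 8 held copies of 1 family by name, 9 families in all, against 13 of 28 other genes, or 11 of 26 with each snoRNA counted once. Over 12 pairs of copies within a host with a GENCODE sequence each, identity in a global alignment ranged from 60.0% to 84.7%. The copies of RPL7A and RPL4 are printed below with SNORD24, their neighbour in RPL7A. Capitals mark TGATG of box C near the 5′ end and CTGA of box D near the 3′ end.
SNORD24: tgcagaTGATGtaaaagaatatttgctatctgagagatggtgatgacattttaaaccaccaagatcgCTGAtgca
SNORD36B: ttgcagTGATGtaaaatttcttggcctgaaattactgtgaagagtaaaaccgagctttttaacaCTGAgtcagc
SNORD36A: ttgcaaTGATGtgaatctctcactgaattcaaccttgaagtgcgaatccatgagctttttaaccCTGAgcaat
SNORD36C: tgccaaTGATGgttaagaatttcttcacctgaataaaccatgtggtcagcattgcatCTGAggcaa
SNORD18A: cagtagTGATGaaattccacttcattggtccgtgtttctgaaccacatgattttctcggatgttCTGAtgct
SNORD18B: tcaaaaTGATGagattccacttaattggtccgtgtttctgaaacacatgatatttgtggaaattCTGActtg
SNORD18C: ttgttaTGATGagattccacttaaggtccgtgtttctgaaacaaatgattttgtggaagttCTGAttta

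SNORD18B and SNORD18C were the most alike of the RPL4 copies, with 61 identical positions of 72, 84.7%. SNORD36B and SNORD36C of RPL7A shared 48 of 80 positions, 60.0%. TGATG was found in the opening 25 bases and CTGA in the closing 25 bases in 34 of the 35 box C/D snoRNAs with a sequence.

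The box H/ACA kind made up 14 of the 51. SNORA52 lies in intron 3 of the stalk gene RPLP2, and SNORA3A and SNORA3B in introns 3 and 4 of RPL27A, where they shared 96 of 136 aligned positions, 70.6%. Capitals mark the ACA near the 3′ end, found in the closing 10 bases of 13 of the 14.
SNORA52: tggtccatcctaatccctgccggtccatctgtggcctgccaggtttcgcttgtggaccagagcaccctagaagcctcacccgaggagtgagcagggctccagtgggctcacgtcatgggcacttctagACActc
SNORA3A: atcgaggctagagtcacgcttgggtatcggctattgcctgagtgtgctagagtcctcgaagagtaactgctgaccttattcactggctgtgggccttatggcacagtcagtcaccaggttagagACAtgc
SNORA3B: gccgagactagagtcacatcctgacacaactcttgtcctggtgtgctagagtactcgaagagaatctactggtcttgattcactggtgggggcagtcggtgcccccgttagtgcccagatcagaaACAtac

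The 37 box C/D snoRNAs of ribosomal protein genes lay close to the end of their introns. The median distance was 89 bases, with quartiles of 79 and 146 bases, against a median of 347 bases for 63 box C/D placements in other genes, and also 347 bases for the 59 snoRNAs counted once. It fell between 50 and 100 bases in 20 of 37, 54.1%, and in 19 of 63, 30.2%, or 17 of 59, 28.8%, counted once. Over snoRNAs of every kind, the host introns were also shorter in ribosomal protein genes. Their median was 508 bases over 51 introns against 1242 bases over 147, or 1251 bases over 141. Host introns of the box C/D kind alone were not compared. In RPL7A the distances were 80 bases for SNORD24, 75 for SNORD36B, 69 for SNORD36A and 89 for SNORD36C. SNORD139 in RPL3 was listed as ending at the last base of its intron, and SNORD101 in RPS12 was 1081 bases away. The 14 box H/ACA snoRNAs had a median distance of 163.5 bases, against 556.5 bases for 66 placements in other genes, or 698 bases for 64 snoRNAs counted once.

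**Figure D4:**
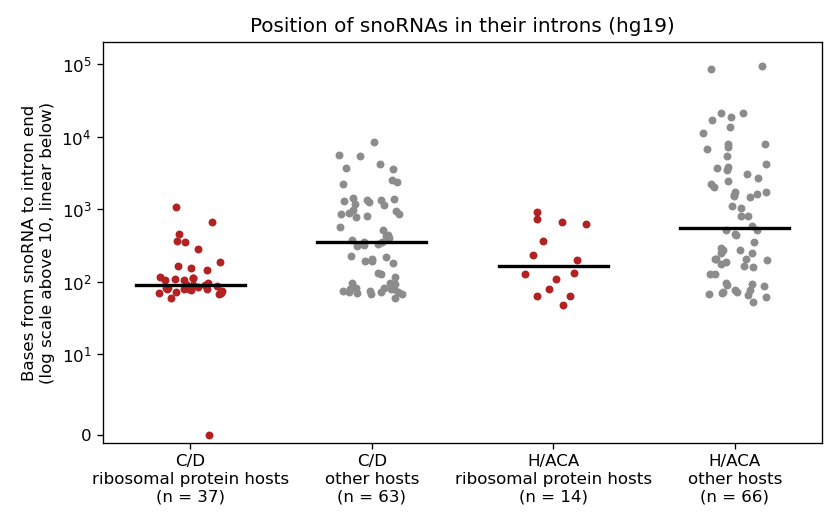
Bases from each snoRNA to the end of its intron (vertical axis, log scale above 10 and linear below), by kind, for ribosomal protein hosts (red) and other hosts (grey). Each point is a snoRNA in 1 host gene and the black line is the median, 89 bases for box C/D in ribosomal protein hosts against 347 bases in other hosts, and 163.5 bases for box H/ACA in ribosomal protein hosts against 556.5 bases.

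These features bear on what a value for an intron of these genes could measure. Of the 344 introns, 22 in 20 genes were shorter than the 100-base reads, 6.40%, against 4.77% over all genes, the shortest being 73 bases in intron 2 of RPL10A and 75 bases in intron 6 of RPL10. At least 1 base of 58 introns, 16.9%, lay in an exon of a RefSeq transcript, against 3.18% over all genes. A snoRNA lay inside 51 of these 58. The other 7 were intron 1 of RPL17, intron 3 of RPL28, intron 4 of RPL31, intron 4 of RPS20, intron 4 of RPS24, intron 1 of RPS27A and intron 2 of RPS29. A total of 265 introns, 77.0%, in 75 of the 76 genes were at least as long as a read and free of RefSeq exons. RPL23A was the gene with none, since each of its 4 introns holds a snoRNA. When exons of every transcript in the table were counted, whatever their strand, 129 introns in 57 genes remained, and 19 genes, RPL10, RPL23 and RPS24 among them, had no intron that was both free and as long as a read.

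The genes were spread over 21 chromosomes, with 12 on chromosome 19, among them RPS19 from 42363988 to 42375484 and RPS28, and 4 on the X chromosome. RPS26 and RPL41, both on chromosome 12, were separated by 72366 bases.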

How the data were processed

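RNA of 6 U2OS samples was sequenced as single-end reads of 100 bases, per the labels. The submitters' processing notes name CASAVA 1.8.2 and hg19, and no unit, aligner or counting method is given in the sources used here. The deposited table has no header, and its 6 value columns name no sample, so they were not used and the planned limma tests were not run.

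Names and positions of features were extracted in Python 3.11.15. RefSeq accessions took symbols from a RefSeq table of GRCh38.p14. Lengths count both ends, and unplaced and haplotype sequences were left out. Overlap with exons ignored strand and was tested on made-up intervals. snoRNAs are single-exon NR lines named SNORD, SNORA or SCARNA inside an intron. Promoters are RefSeq windows of GRCh38.p14, from 250 bases before to 50 after the start, the first listed for each symbol. Coding regions and snoRNA sequences are from GENCODE release 29, matched by accession, taking the transcript nearest in length, and by name. Its coordinates were not mixed with hg19. snoRNA copies were aligned globally with Biopython 1.88 (match 1, mismatch -1, gap opening -2, extension -0.5).

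Named genes are the stalk, Diamond-Blackfan anaemia, X-linked and selected other genes, those with extreme structures and those with at least 3 snoRNAs. RPL10A, RPL15, RPL17, RPS2 and the genes listed by overlap or neighbourhood were named after their values were seen. Members and lists were chosen with earlier results of these data known. Some members are counted but not reported by name here.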

Additional observations from a re-analysis of the deposited data

How the results depend on the processing

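The count of members was 76, and 84 with L-ending paralogs kept. The median exonic length, 720.5 bases, was 657 with the shortest transcript of each gene, the median number of introns was 5 in place of 4 with the transcript that has the most, and the median intron length was 508 bases in place of 484.5 over the distinct introns of all NM transcripts. Of the 22 introns shorter than a read, 0 were shorter than 50 bases, a bound that could lower the count alone. The 58 introns over a RefSeq exon became 206, 59.9%, with the exons of all listed transcripts, and stayed 58 when at least 50 bases had to overlap. With the exons of all listed transcripts the share was 26.2% over all genes, 42.6% in complex I genes and 30.8% in proteasome genes. Hosts of snoRNAs numbered 25, and 26 over all NM transcripts. Counting each snoRNA once was chosen after seeing the data, with a host of the ribosomal protein set first and otherwise the gene with the shortest intron around it. The TOP element, present in 41 genes at the start, was present in 49 within 5 bases of it, while over all genes that share was 22.3%. It was present in 24, 39.3%, when at least 7 pyrimidines had to follow the C, against 1.78% over all genes. Tests on levels and their other settings (pseudocount, filter on low values, replicates left out) were not run. No paired analysis was possible because no value column could be matched to a sample or to its replicate number. Read depth limits nothing given here, since no values were used.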

Other observations

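The TOP element was also found in other hosts of snoRNAs. Of 91 genes outside the ribosomal protein set that host a snoRNA and have a promoter window, 19 had a C followed by at least 4 pyrimidines at the annotated start, 20.9%, or 19 of 89 with each snoRNA counted in 1 gene, against 640 of 14717 genes with no snoRNA, 4.35%. Within the ribosomal protein genes the element was present in 10 of 15 hosts and in 31 of 46 genes with no snoRNA.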
